A study of Mus musculus with 4 samples.

Results

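The transcriptome of mouse embryoid bodies at the last stage of an all-trans retinoic acid (ATRA) series, 10 days, was compared with that at its first stage, 0 days. Embryoid bodies are floating clusters of differentiating embryonic stem cells, and these came from ES-E14TG2a, an established mouse embryonic stem cell line. RNA was sequenced in 4 libraries with no replicates: an embryoid body control, and embryoid bodies with ATRA at 0, 6 and 10 days. The comparison rests on 2 of the 4 libraries, and the control and 6-day libraries are given beside them as levels. In all 3 ATRA groups the medium held 5 µM ATRA, added on days 4 and 6 of embryoid body culture with the stated aim of neural differentiation. After 8 days in suspension the embryoid bodies went to dishes coated with poly-DL-ornithine and laminin. The series describes the stages as following 4 days of ATRA treatment, so that 0 days is read here as the end of treatment and not as an untreated state. The control's day of culture is not in the labels, and neither is the place of each library relative to the transfer to coated dishes, so stage and culture format cannot be told apart. Genes were included when they reached 1 FPKM (fragments per kilobase of transcript, scaled to the mapped total of the library) in either library, which 5667 of 9997 gene symbols did. Where 3 values follow the control "over the series", they are those of 0, 6 and 10 days in that order. With 1 library a side no difference has a replicate check, no test was possible, and every value describes these libraries.

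Retinoic acid is the signalling form of vitamin A. It binds nuclear receptors (Rara, Rarb, Rarg) that pair with retinoid X receptors on DNA and switch on targets such as the anterior Hox genes, which give cells of the hindbrain and spinal cord their position. In embryoid bodies it is a classical way to obtain neurons, but the aggregates also form an outer layer of extraembryonic endoderm, with an underlying basement membrane, and other germ layers. The lists below therefore cover the retinoid response, the neural lineage and the other cell types that such aggregates can hold.

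The deposited table used here covered chromosomes 1 and 10 to 18, with 8323 of their 9250 annotated protein-coding genes (89.98%), and genes elsewhere were not analysed here. Depth, read from the spacing of the lowest FPKM values, was estimated at 26300000 fragments in the 0-day library and 27300000 in the 10-day library. A level of 5 FPKM on a 1 kb transcript then rests on 132 and 137 fragments, with a counting error of 8.72% and 8.55%, and a level resting on 3 fragments is 0.114 and 0.110 FPKM. The counting standard error of the log2 differences of the genes named by rule was between 0.00396 and 0.164, with a median of 0.064. These errors cover counting only, not the spread between cultures. Every difference is one of log2(FPKM + 1), a scale that shrinks differences between low levels, and "higher" or "lower" means 2-fold or more on that scale.

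At 10 days the embryoid bodies held far more RNA of extraembryonic endoderm, liver-type secreted proteins, simple epithelium, basement membrane, placental hormones, collagen-rich matrix and heart muscle than at 0 days. They held less RNA of the anterior Hox genes, the retinoic acid receptors Rarb and Rarg, germ line genes, and the gene Nodal with its inhibitor Lefty1. Genes of neurons stood on both sides. In bulk samples, fewer cells of a type and less RNA per cell cannot be told apart, here or in any result below. Of the 5667 genes, 848 were higher at 10 days (15.0%) and 447 were lower (7.89%), while 4372 were neither. By 4-fold or more, 248 were higher and 62 lower. The median difference over all tested genes was 0.01, with quartiles of -0.48 and 0.63. Of the genes called, 65.5% were higher. That split depended on the scaling. With small and ribosomal RNAs left out but nothing rescaled, 830 genes were higher and 433 lower of 5601. When small and ribosomal RNAs were left out and the libraries rescaled to the remaining sum, the median of all genes moved to -0.36, 518 genes were higher and 984 lower, and 34.5% of those called were higher.

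**Figure D1:**
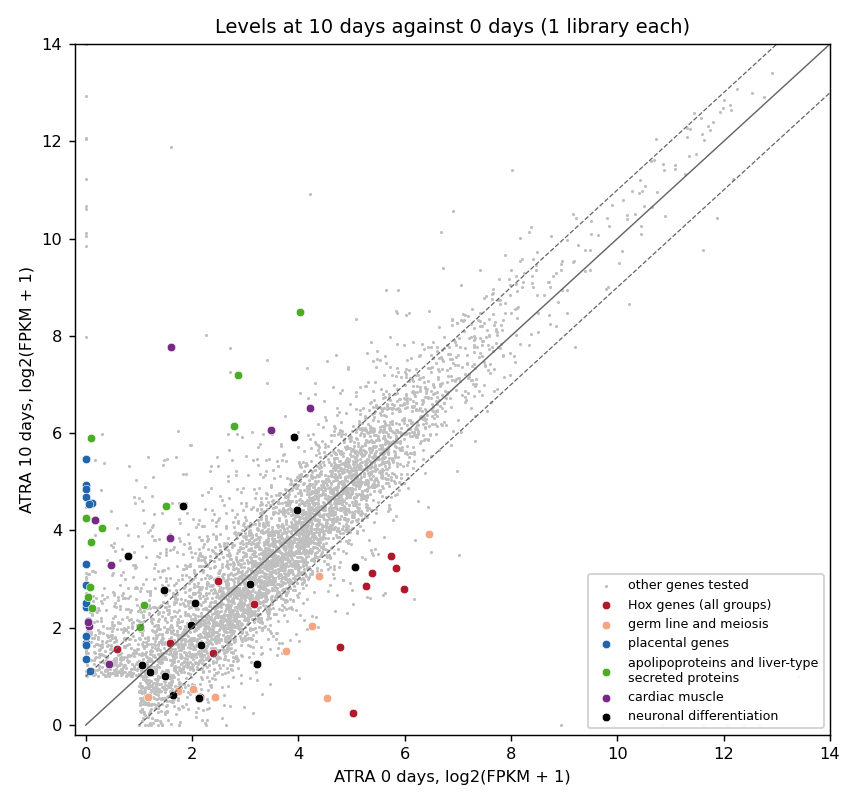
Level at 10 days against level at 0 days, both as log2(FPKM + 1), for the 5667 genes tested, 1 point per gene and 1 library per axis. The dashed lines mark a 2-fold difference on that scale, and the Hox and germ line genes lie mostly below the lower line while the liver-type, placental and cardiac genes lie mostly above the upper line.

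The filter itself shaped part of these counts. Of the tested genes, 426 were under 1 FPKM at 0 days and entered through their 10-day level alone, and 292 were under 1 FPKM at 10 days. A gene that enters in this way from near 0 is bound to differ. Among the 5241 genes at 1 FPKM or more at 0 days, 579 were higher, and among the 5375 at that level at 10 days, 323 were lower. Near the line, 64 higher genes lay within 0.05 inside the threshold and 68 within 0.05 outside it, against 43 and 67 for lower genes. There were 39 higher genes listed at 0 at 0 days, and 17 lower genes listed at 0 at 10 days, for which no fold is given.

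Shorter transcripts stood higher at 10 days than longer ones. The median difference was 0.75 for the 293 genes whose longest annotated transcript was at most 1000 nt, 0.14 for the 1164 genes between 2000 and 3000 nt, and -0.48 for the 476 genes over 7000 nt. In the shortest class 33.1% of genes were higher and 5.12% lower, and in the longest 5.67% were higher and 14.3% lower. The direction was the same in the step from 0 to 6 days, from 0.30 in the shortest class to -0.29 in the longest, and in the step from 6 to 10 days, from 0.36 to -0.15. FPKM divides by transcript length, and the part of RNA quality, library preparation or transcript choice in this trend was not tested. After each length class was centred on the median of all genes, 720 genes were higher and 373 lower, of the 5564 with an annotated length.

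**Figure D2:**
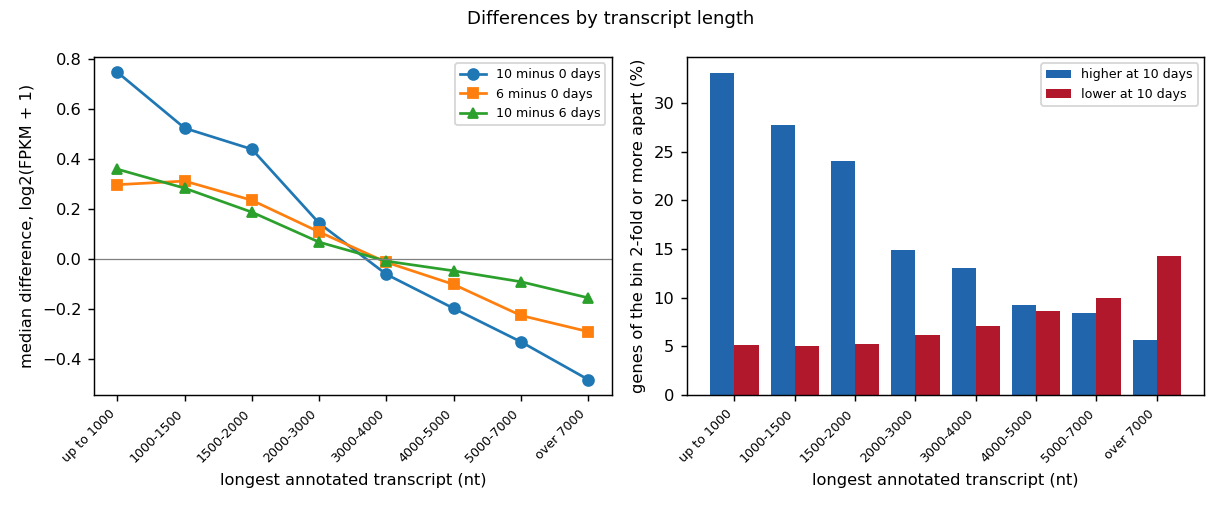
Left, the median difference in log2(FPKM + 1) for 8 classes of transcript length in nt, for 10 minus 0 days and for its steps through 6 days. Right, the percent of genes of each class 2-fold or more higher or lower at 10 days; the bars for higher genes shrink from 33.1% to 5.67% as length grows, and those for lower genes grow from 5.12% to 14.3%.

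The Hox genes of paralog groups 1 to 4, the earliest responders to retinoic acid in the hindbrain, were lower at 10 days in all 4 tested cases, with a median of -2.73, against 7.89% of all genes. Hoxb1 (chr11:96365752-96368256 on mm10, plus strand), which specifies a single hindbrain segment, stood at 0.0189 FPKM in the control and, over the series, 31.5, 0.480 and 0.181 FPKM. Its level was thus above 1 FPKM in the 0-day library alone, and the log2 difference from 0 to 10 days was -4.78 for Hoxb1. Hoxc4 (chr15:103018934-103036852, plus strand) stood at 0.317, 62.4, 10.7 and 5.94 FPKM in the same order, a difference of -3.19. Unlike Hoxb1, it remained well above its control level. Hoxb2 stood at 0.0503, 52.4, 10.7 and 10.1 FPKM (-2.27), and Hoxb3 at 0.105, 40.6, 11.4 and 7.75 FPKM (-2.25). For these 4 genes most of the difference was already present at 6 days.

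Among groups 5 to 9, which act further back along the body axis, 3 of 7 genes were lower, none was higher, and the median was -0.91. Hoxb5 stood at 0.0294 FPKM in the control and, over the series, 56.2, 11.3 and 8.44 FPKM (-2.60), Hoxb8 at 0.0176, 37.8, 12.3 and 6.24 FPKM (-2.42), and Hoxc5 at 0.0426, 26.5, 5.36 and 2.04 FPKM (-3.18). The other 4 did not reach 2-fold between 0 and 10 days. Hoxb7 was at 7.99 FPKM at 0 days and 4.60 at 10 days (-0.68), and Hoxc8 at 4.27 and 1.79 FPKM (-0.91), and both passed the 2-fold line when length classes were centred and under the rescaled sum. Hoxc9 was at 1.98 and 2.21 FPKM (0.10), a sign that flipped under both of those settings. Hoxc6 was the exception in its path: it was at 0.0912 FPKM in the control and, over the series, 4.60, 14.9 and 6.83 FPKM (0.48), so its 6-day level was more than 2-fold above both ends. The annotated span of Hoxc5 contains Hoxc6, Hoxc8 and Hoxc9 on the same strand, and Hoxb2, Hoxb3 and Hoxb5 overlap antisense genes on the opposite strand, so reads could be split among them in a way the table does not show.

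In groups 10 to 13, the most posterior, 2 of the 5 genes in the table were tested. Hoxb13 stood at 0.200 FPKM in the control and, over the series, 3.46, 0.253 and 0.497 FPKM (-1.58). Hoxc13 went the other way without reaching 2-fold, at 0.362, 0.506, 1.46 and 1.95 FPKM (0.97).

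**Figure D3:**
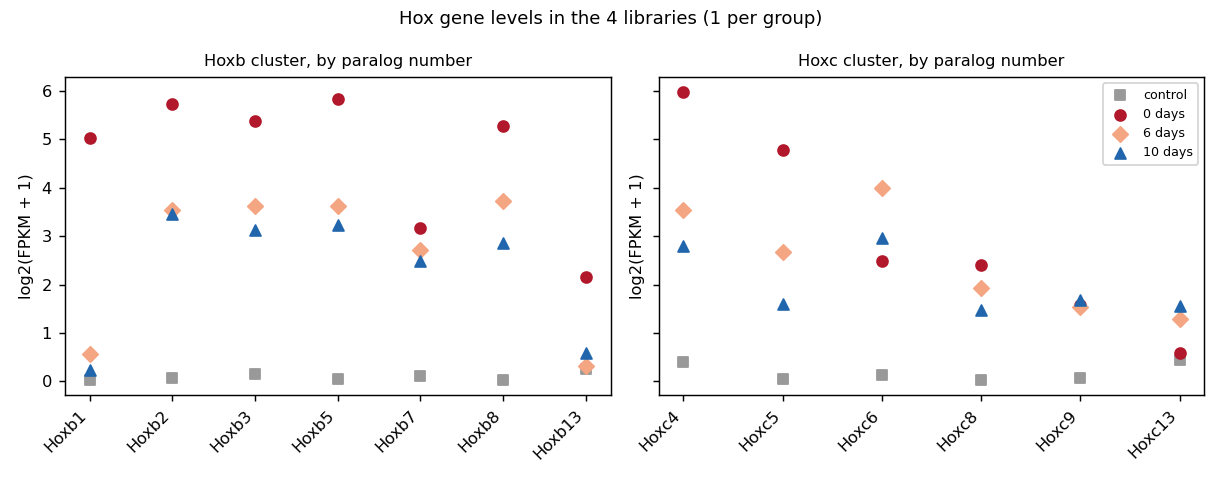
Level of each tested Hox gene as log2(FPKM + 1) in the 4 libraries, in order of paralog number, for the Hoxb cluster (left) and the Hoxc cluster (right). The 0-day points stand highest for Hoxb1 to Hoxb13 and for Hoxc4, Hoxc5 and Hoxc8, while Hoxc6 is highest at 6 days and Hoxc9 and Hoxc13 at 10 days.

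The machinery of retinoic acid signalling itself was lower, with a median of -1.77. Of 9 tested genes 5 were lower and 1 higher, against 7.89% and 15.0% of all genes. Rarb, a receptor that is also a direct retinoid target, stood at 0.630 FPKM in the control and, over the series, 16.9, 3.97 and 2.92 FPKM (-2.19). Rarg, the receptor most abundant in undifferentiated stem cells, stood at 79.5, 42.4, 12.4 and 11.2 FPKM (-1.83). Its control level was thus the highest of the 4 libraries, whereas Rarb had its highest at 0 days. Rara was at 20.8 FPKM at 0 days and 13.6 at 10 days (-0.58), and Rxrb at 25.7 and 24.5 FPKM (-0.06). Lower as well were Nrip1, a retinoid-induced corepressor, at 15.1 and 2.33 FPKM (-2.27), and the posterior homeobox gene Cdx1 at 4.91 and 0.726 FPKM (-1.77). Meis1, a Hox cofactor, was at 29.4 and 14.8 FPKM (-0.94). The 1 higher gene was Rdh10, which makes retinal on the way to retinoic acid, at 2.25 FPKM in the control and, over the series, 7.26, 14.6 and 15.8 FPKM (1.03). Rdh10 fell short of 2-fold under upper-quartile scaling (0.99) and under the rescaled sum (0.65).

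The promoter of Rarb carries the element through which retinoid receptors act on it, a direct repeat of a half-site whose cores are 6 bases apart. It is printed here because Rarb was the only lower gene with such a repeat in its promoter, beside higher genes with the same letters. Promoters are those of RefSeq on GRCm38.p6, from 250 bases before to 50 bases after the start, 5′ to 3′ on the gene's strand, and capitals mark matches to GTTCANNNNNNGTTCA or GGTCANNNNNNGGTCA and to TGATAA or AGATAA, on either strand. The windows lie at chr14:16575427-16575726 (minus strand) for Rarb, chr11:75439452-75439751 (minus strand) for Serpinf2, which encodes the plasmin inhibitor, and chr13:13182466-13182765 (plus strand) for Prl2c5, a placental hormone of the prolactin family. The capitals of Serpinf2, and the first run in Prl2c5, match on the opposite strand.
Rarb: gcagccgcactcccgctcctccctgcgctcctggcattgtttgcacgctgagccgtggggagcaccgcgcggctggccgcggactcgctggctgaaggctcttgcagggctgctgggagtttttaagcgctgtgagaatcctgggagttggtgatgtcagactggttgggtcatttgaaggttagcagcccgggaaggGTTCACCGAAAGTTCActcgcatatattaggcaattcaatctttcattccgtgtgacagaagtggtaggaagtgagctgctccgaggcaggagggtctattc
Serpinf2: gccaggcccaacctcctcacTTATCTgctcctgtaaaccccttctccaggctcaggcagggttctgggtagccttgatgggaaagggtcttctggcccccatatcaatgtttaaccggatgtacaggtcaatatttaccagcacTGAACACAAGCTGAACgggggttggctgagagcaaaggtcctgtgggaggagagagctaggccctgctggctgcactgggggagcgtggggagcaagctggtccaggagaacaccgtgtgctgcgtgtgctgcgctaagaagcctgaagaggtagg
Prl2c5: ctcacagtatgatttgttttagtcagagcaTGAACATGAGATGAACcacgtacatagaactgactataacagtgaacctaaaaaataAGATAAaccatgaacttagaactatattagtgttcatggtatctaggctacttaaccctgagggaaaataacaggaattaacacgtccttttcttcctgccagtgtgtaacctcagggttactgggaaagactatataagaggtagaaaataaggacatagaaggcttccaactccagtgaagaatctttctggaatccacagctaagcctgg

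A promoter was matched for 4150 of the tested genes, and 8 of these held the direct repeat (0.193%), as did 58 of all 32851 promoters of the table (0.177%). The share was 4 of 593 higher genes with a promoter (0.675%) and 1 of 290 lower genes (0.345%). The matches differ in the 6 bases between the cores, shown in lower case and read on the strand of the match, and the levels that go with them run in both directions.
Rarb: GTTCAccgaaaGTTCA
Serpinf2: GTTCAgcttgtGTTCA
Prl2c5: GTTCAtctcatGTTCA
Prl7d1: GTTCAtctcatGTTCA
Bmp6: GGTCAcggcacGGTCA
Ropn1l: GGTCActcgttGGTCA
Kif1a: GGTCAccacgtGGTCA
Dus3l: GGTCAtccgtgGGTCA
The Rarb repeat began 52 bases before the start. Prl2c5 and its relative Prl7d1 share the whole stretch, so they are not separate instances. Bmp6, a bone morphogenetic protein, stood at 2.82 FPKM at 0 days and 6.52 at 10 days (0.98, or 1.05 with length classes centred), Ropn1l at 1.14 and 4.07 FPKM (1.24), the neuronal motor Kif1a at 3.04 and 1.68 FPKM (-0.59), and Dus3l at 16.0 and 10.9 FPKM (-0.51). TATAAA was in 8.46% of the tested genes' promoters, 13.8% of those of higher genes and 8.62% of those of lower genes, against 13.6% of all promoters of the table. TGATAA or AGATAA, the letters GATA factors bind, were in 11.8%, 16.7%, 11.03% and 18.6% in the same order. A match is a description of letters, not of binding.

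Germ line and meiosis genes were lower at 10 days in 8 of 9 cases, against 7.89% of all genes, none was higher, and the median was -1.84. Of the 9, 5 were under 1 FPKM at 10 days and entered through their 0-day level alone; the other 4 were all lower. Dazl (chr17:50279395-50293636, minus strand), an RNA-binding protein of germ cells, stood at 2.80 FPKM in the control and, over the series, 22.2, 1.18 and 0.474 FPKM (-3.98). Rec8, the meiotic cohesin subunit, stood at 3.57, 87.1, 11.5 and 14.1 FPKM (-2.54). Both had their highest level at 0 days by a wide margin. The helicase Ddx4 was at 18.1 FPKM at 0 days and 3.08 at 10 days (-2.22), Mael, which guards against transposons, at 12.7 and 1.86 FPKM (-2.26), and the synaptonemal complex gene Sycp3 at 19.9 and 7.35 FPKM (-1.32). Tex14, needed for the bridges between germ cells, was at 4.37 and 0.494 FPKM (-1.84), and Smc1b, a meiotic cohesin subunit, at 2.35 and 0.626 FPKM (-1.04, or -0.84 with length classes centred). Prdm1 was the gene that was not lower by 2-fold, at 1.26 and 0.490 FPKM (-0.60).

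The genes of the undifferentiated state did not move as a group: 3 of 14 were higher and 3 lower, against 15.0% and 7.89% of all genes. Of the 14, 3 were under 1 FPKM at 0 days and entered through the 10-day level, and of the other 11, 1 was higher. The median of the list, 0.30, turned to -0.10 under the rescaled sum. Pou5f1 (chr17:35506018-35510772, plus strand), the core factor of pluripotency, stood at 1241 FPKM in the control and, over the series, 97.4, 150 and 141 FPKM (0.53). Its level at 10 days was thus no lower than at 0 days. Tdh, a threonine-degrading enzyme of mouse stem cells, was at 195 FPKM in the control and, over the series, 0.873, 34.3 and 24.8 FPKM (3.78), and Tcl1, a cofactor of the kinase Akt, at 101, 0.905, 9.89 and 8.77 FPKM (2.36). These 2 had their lowest level at 0 days and returned part of the way towards the control. Fbxo15 was at 8.67 FPKM at 0 days and 19.6 at 10 days (1.09), under 2-fold once length classes were centred (0.96) and under the rescaled sum (0.71). The lower genes were Dppa2 at 8.18 and 2.32 FPKM (-1.47), its partner Dppa4 at 27.8 and 10.9 FPKM (-1.27), and Jarid2, a Polycomb subunit, at 24.03 and 7.59 FPKM (-1.54).

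Of 14 regulators of DNA methylation and Polycomb silencing, 6 were lower and 1 higher, against 7.89% and 15.0% of all genes. Their median was -0.61. The de novo methyltransferase Dnmt3a was at 20.4 FPKM at 0 days and 7.21 at 10 days (-1.38), the Polycomb reader Cbx2 at 10.0 and 2.83 FPKM (-1.53), and Suz12, a core subunit, at 38.3 and 18.4 FPKM (-1.02, or -0.81 with length classes centred). Cbx8, another reader, was higher, at 1.73 and 4.78 FPKM (1.08). Many of these transcripts are long, and with length classes centred only 2 of the 14 were lower.

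Endoderm regulators and the receptors of visceral endoderm, the absorptive outer layer of the early embryo, were higher in 7 of 10 cases, against 15.0% of all genes, and lower in 2, with a median of 1.83. Sox17 (chr1:4490931-4497354, minus strand), a master regulator of endoderm, stood at 1.75 FPKM in the control and, over the series, 1.87, 39.6 and 43.5 FPKM (3.95). Dab2, an endocytic adaptor, stood at 13.99, 16.9, 184 and 161 FPKM (3.18). Their levels at 0 days were close to the control, and nearly all of the difference was present at 6 days. Amn, which forms the vitamin B12 receptor with cubilin, was at 2.56 FPKM at 0 days and 34.7 at 10 days (3.33), the signal Ihh at 0.921 and 32.0 FPKM (4.10), and Gata4 at 17.7 and 90.6 FPKM (2.29). The exceptions were Sox7, a marker of parietal endoderm, at 19.6 and 3.04 FPKM (-2.35), and Lefty1, a Nodal inhibitor, at 38.3 and 5.24 FPKM (-2.65).

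The proteins that visceral endoderm and later the liver secrete were higher in 12 of 13 cases, against 15.0% of all genes. None was lower, and the median was 3.35. Of the 13, 7 were under 1 FPKM at 0 days and entered through the 10-day level; of the other 6, 5 were higher. Ttr, the carrier of thyroid hormone and retinol-binding protein, stood at 1.07 FPKM in the control and, over the series, 15.4, 183 and 356 FPKM (4.44). Apoa2, an apolipoprotein, stood at 0.107, 6.24, 40.8 and 146 FPKM (4.34). Vtn (chr11:78499091-78502324, plus strand), the adhesion protein vitronectin, stood at 0.106, 0.0777, 30.9 and 59.1 FPKM (5.80), the third largest upward difference among the genes named by rule. All 3 stood higher at each step. Apom was at 5.92 FPKM at 0 days and 69.4 at 10 days (3.35), and Ahsg, fetuin-A, at 0.0756 and 12.6 FPKM (3.66). Serpina6, the glucocorticoid carrier, was listed at 0 at 0 days and stood at 15.4 FPKM at 6 days and 18.1 at 10 days. Fetub had the smallest difference, at 1.03 and 3.06 FPKM, just short of 2-fold.

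Protease inhibitors, a list that shares 4 genes with the one above, were higher in 16 of 18 cases, against 15.0% of all genes. Of the 18, 9 were under 1 FPKM at 0 days and entered through the 10-day level; of the other 9, 7 were higher. Small RNAs and predicted genes aside, the largest upward difference among genes reaching 5 FPKM was that of Spink1, which inhibits trypsin, at 26.1 FPKM in the control and, over the series, 17.6, 1122 and 1924 FPKM (6.69). Serpinb6a was at 41.1 FPKM at 0 days and 178 at 10 days (2.09), Serpinb9b at 1.18 and 28.8 FPKM (3.78), and Timp3, which binds to matrix and blocks its proteases, at 4.64 and 38.8 FPKM (2.82). Serpinf1 was the only tested member with a lower level, at 30.0 and 20.2 FPKM (-0.55). Serpina1 and Serpinb9 genes have near-identical copies, so their single values are uncertain.

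Placental genes appeared between 0 and 10 days. All 36 genes of the list in the table were under 1 FPKM at 0 days. The 17 that reached 1 FPKM did so through the 10-day library, so that all 17 differing is a matter of how they entered. The summed level of these 17 was 0.526 FPKM in the control and, over the series, 0.340, 82.8 and 225 FPKM. That sum is shaped by the same entry. Tpbpa (chr13:60938492-60941984, minus strand), the marker of spongiotrophoblast, stood at 0.0971 FPKM in the control, was listed at 0 at 0 days, and stood at 19.2 FPKM at 6 days and 28.0 at 10 days. Ctsj, a placental cathepsin, was also listed at 0 in the 0-day library, with 8.91 FPKM at 6 days and 43.1 at 10 days. The prolactin family genes Prl2b1 and Prl2a1 were likewise listed at 0 there, with 19.3 and 7.38 FPKM at 6 days and 29.4 and 24.8 FPKM at 10 days. Prl8a9 was at 0.0469 FPKM at 0 days, 2.01 at 6 days and 22.3 at 10 days (4.48). Tpbpa and Prl2b1 were thus near their 10-day level at 6 days, while Prl8a9, Ctsj and Prl3b1 (listed at 0, then 0.669 and 6.37 FPKM) stood far below theirs. The giant cell hormone gene Prl3d1 was at 0.724 FPKM at 10 days and did not reach the filter. Prl2c genes are near-identical, so reads shared by Prl2c2, Prl2c3 and Prl2c5 could not be told apart here.

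**Figure D4:**
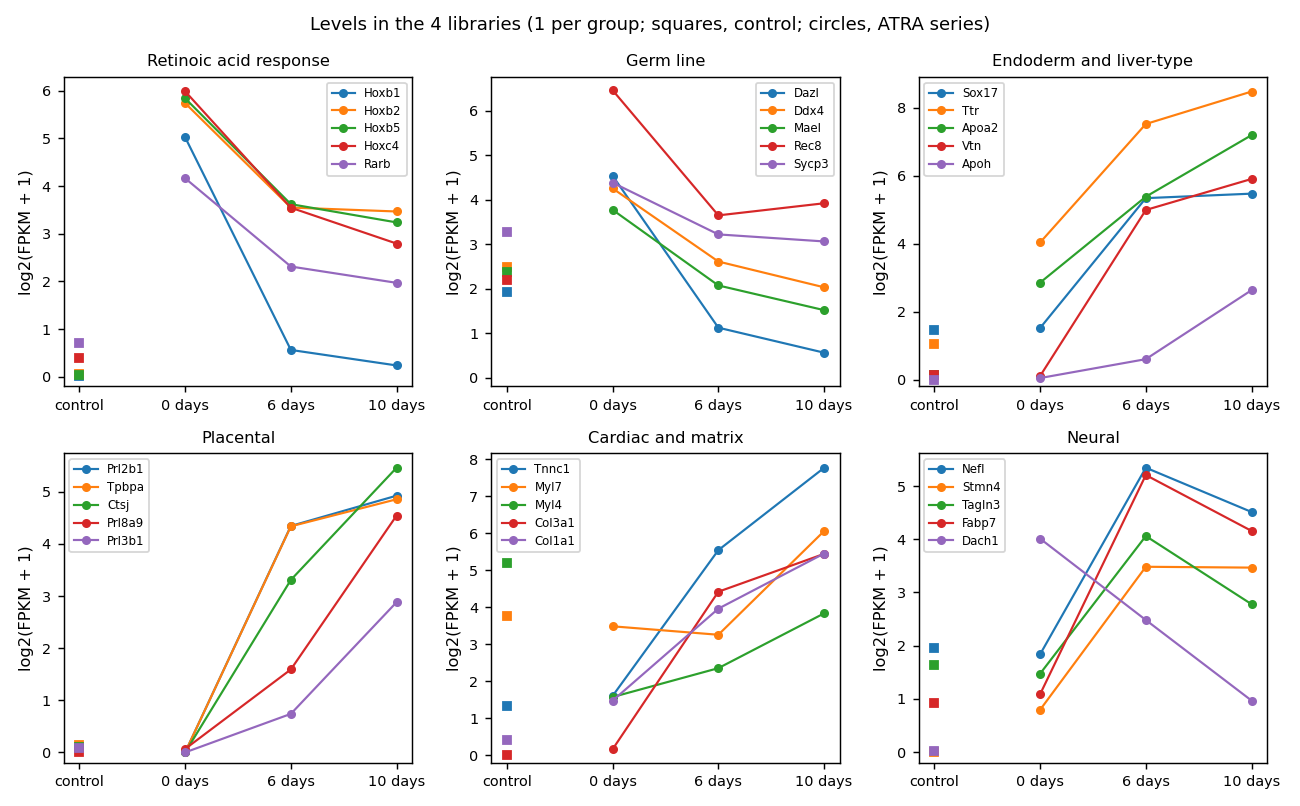
Levels of 30 genes as log2(FPKM + 1) in the 4 libraries, in 6 panels by role; squares are the control and circles joined by lines the ATRA series, 1 library per point. Within the ATRA series, retinoic acid and germ line genes are highest at 0 days, endoderm, liver-type, placental, cardiac and matrix genes are highest at 10 days, and Nefl, Stmn4, Tagln3 and Fabp7 are highest at 6 days.

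Epithelial genes were higher in 19 of 24 cases and lower in none, against 15.0% and 7.89% of all genes, with a median of 2.19. Of the 16 already at 1 FPKM at 0 days, 12 were higher. The keratin pair of simple epithelia led by level. Krt8 (chr15:101996698-102004482, minus strand) stood at 93.7 FPKM in the control and, over the series, 102, 753 and 1129 FPKM (3.45), and its partner Krt18 at 12.8, 120, 743 and 1518 FPKM (3.66). Krt7 stood at 0.0976, 3.83, 140 and 260 FPKM (5.76), and Krt19 at 24.4, 57.4, 294 and 490 FPKM (3.07). The tight junction gene Cldn7 was at 9.68 FPKM at 0 days and 182 at 10 days (4.10), and the adhesion molecule Epcam at 24.3 and 122 FPKM (2.29). Keratins of stratified epithelium were present at low levels, with Krt14 at 0.0378 and 7.61 FPKM (3.05) and Krt5 at 0.315 and 5.18 FPKM (2.23). Dsp, desmoplakin, was the only tested member with a lower level, at 29.4 and 15.4 FPKM (-0.89).

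Basement membrane genes were higher in 8 of 10 cases and lower in 1, against 15.0% and 7.89% of all genes, with a median of 2.40. Sparc, a matrix glycoprotein abundant in parietal endoderm, stood at 133 FPKM in the control and, over the series, 259, 1862 and 2711 FPKM (3.38). Among laminin chains, Lamb1 stood at 19.1, 49.2, 320 and 493 FPKM (3.30), and Lama1 at 21.4, 22.2, 156 and 179 FPKM (2.96). Together with Lamc1, at 48.9 FPKM at 0 days and 174 at 10 days (1.81), these are the 3 chains of laminin-111. The lower gene was Col18a1, at 62.5 and 30.7 FPKM, just past 2-fold, which stood at -0.66 with length classes centred. These genes have a median longest transcript of 5689.5 nt, a length at which other genes tended to be lower.

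Genes of the interstitial matrix and its mesenchymal cells were higher in 14 of 20 cases, against 15.0% of all genes, with a median of 1.49. None was lower (2 under the rescaled sum), and of the 11 already at 1 FPKM at 0 days, 6 were higher. Col3a1 (chr1:45311538-45349706, plus strand) stood at 0.00631 FPKM in the control and, over the series, 0.123, 20.4 and 42.5 FPKM (5.28). Col1a1 stood at 0.328, 1.79, 14.6 and 42.8 FPKM (3.97). Both fibrillar collagens stood higher at each step. The proteoglycan Dcn was at 0.125 FPKM at 0 days and 13.9 at 10 days (3.73), the growth factor Ctgf at 104 and 674 FPKM (2.69), and the cross-linking enzyme Lox at 0.139 and 5.15 FPKM (2.43). The receptor Pdgfrb was at 4.98 and 2.59 FPKM (-0.74), and Fbn2 at 3.04 and 1.21 FPKM (-0.87). The collagen-modifying prolyl hydroxylases were higher too, P4ha1 at 56.6 and 228 FPKM (1.99) and P4ha2 at 45.3 and 181 FPKM (1.98). They were the only 2 higher genes of the 15 on the hypoxia and glycolysis list, a share near the 15.0% of all genes. On that list 3 genes were lower, against 7.89% of all genes, and the median was -0.24.

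Heart muscle genes were higher in 8 of 9 cases, against 15.0% of all genes, with a median of 2.29. Of the 9, 5 were under 1 FPKM at 0 days, and the other 4 were all higher. The list holds transcription factors as well as muscle proteins. Gata4, whose difference is the median, is given above among the endoderm regulators and is counted in both lists. Hand1 was at 0.123 FPKM at 0 days and 17.5 at 10 days (4.04). Tnnc1 (chr14:31208312-31211729, plus strand), the calcium-binding troponin of heart and slow muscle, stood at 1.54 FPKM in the control and, over the series, 2.05, 45.7 and 217 FPKM (6.16). Myl7, the atrial light chain, stood at 12.7, 10.2, 8.57 and 65.7 FPKM (2.57). Tnnc1 was thus high by 6 days while Myl7 was higher only after 6 days. Myl4 was at 35.6 FPKM in the control and, over the series, 1.98, 4.12 and 13.3 FPKM (2.26), so that its highest level was in the control. Tnnt2, the cardiac troponin T, was at 0.0484 FPKM at 0 days and 3.09 at 10 days (1.963), and Myh7 at 0.0315 and 3.33 FPKM (2.07). The cardiac factor Nkx2-5 was at 0.695 and 0.864 FPKM and Myh6 at 0.416 and 0.624 FPKM, both under the filter. Tnnc1 overlaps Nisch on the opposite strand.

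Smooth muscle genes were higher in 3 of 5 cases, against 15.0% of all genes. Among them was the calponin Cnn2, at 43.7 FPKM at 0 days and 205 at 10 days (2.21). Blood and endothelial genes were higher in 4 of 7, against the same share of all genes, and all 4 were under 1 FPKM at 0 days. Hba-x, the embryonic globin of the yolk sac, was listed at 0 at 0 days and stood at 0.402 FPKM at 6 days and 6.99 at 10 days. Csf1r, the receptor of macrophages, was at 0.803 and 4.15 FPKM (1.51), whereas Ptprc, which marks all white blood cells, was at 0.0065 and 0.0227 FPKM. The endothelial gene Pecam1 was at 1.37 and 2.05 FPKM (0.36).

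The neural lineage, the stated aim of the culture, split. Among 17 tested genes of neuronal differentiation 4 were higher and 5 lower, against 15.0% and 7.89% of all genes. Of the 17, 3 were under 1 FPKM at 10 days and entered through their 0-day level alone, and of the other 14, 2 were lower. Of the 16 at 1 FPKM or more at 0 days, 3 were higher. The median was -0.12, a sign that changed when only genes at 5 FPKM or more were kept (0.87). Nefl (chr14:68083863-68089095, plus strand), the light neurofilament, stood at 2.88 FPKM in the control and, over the series, 2.58, 39.6 and 21.8 FPKM (2.67). Stmn4, a microtubule regulator of neurons, was listed at 0 in the control and stood at 0.736, 10.2 and 10.1 FPKM (2.67). Tubb2b, a neuronal tubulin, stood at 81.7, 14.05, 88.6 and 59.4 FPKM (2.01), and Tagln3 at 2.10, 1.78, 15.7 and 5.87 FPKM (1.31, and 0.79 with length classes centred). All 4 had a higher level at 6 days than at 10 days. Map2, the dendritic microtubule protein, followed the same path to a different end, at 0.964 FPKM in the control and, over the series, 1.82, 4.74 and 1.02 FPKM (-0.48).

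The 5 lower neuronal genes had different roles. Pou4f1, a sensory neuron factor, stood at 4.83 FPKM in the control and, over the series, 8.28, 4.76 and 1.37 FPKM (-1.97). Prph, the filament of peripheral neurons, stood at 13.4, 32.7, 3.56 and 8.45 FPKM (-1.83). Lhx1 was at 3.40 FPKM at 0 days and 0.468 at 10 days (-1.58), Ebf1 at 3.40 and 0.475 FPKM (-1.58), and the axonal adhesion gene Cntn2 at 2.11 and 0.538 FPKM (-1.01, or -0.52 with length classes centred). Markers of mature neurons stayed low throughout: Rbfox3 (NeuN) was at 0.0761 FPKM at 0 days, 0.572 at 6 days and 0.162 at 10 days, and the synaptic gene Syt1 at 0.130, 0.388 and 0.202 FPKM.

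Among 15 genes of neural progenitors and proneural factors, 6 were higher and 4 lower, against 15.0% and 7.89% of all genes. The higher count was 3 under the rescaled sum, 4 under upper-quartile scaling, and 3 with length classes centred, where 3 were lower. Fabp7, the lipid-binding protein of radial glia, stood at 0.890 FPKM in the control and, over the series, 1.13, 35.9 and 16.8 FPKM (3.07). Id4, an inhibitor of differentiation, was at 1.05 FPKM at 0 days and 6.10 at 10 days (1.79), and the Notch ligand Dll1 at 2.63 and 6.29 FPKM (1.01). The lower genes were transcription factors. Dach1 stood at 0.0159 FPKM in the control and, over the series, 15.1, 4.59 and 0.958 FPKM (-3.04), and Nr2f1 at 0.0874, 12.3, 6.47 and 4.37 FPKM (-1.31). Sox4 was at 41.6 and 17.0 FPKM (-1.24) and Sox11 at 12.4 and 4.95 FPKM (-1.17, or -0.67 with length classes centred). Neural crest genes were higher in 4 of 10 cases (1 under the rescaled sum) and lower in 3 (2 with length classes centred), against 15.0% and 7.89% of all genes, with Msx2 at 4.26 FPKM at 0 days and 14.2 at 10 days (1.53), and Ednrb, the endothelin receptor of migrating crest, at 30.4 and 6.57 FPKM (-2.05). On the glia list 1 of 6 members was higher and 1 lower, against 15.0% and 7.89% of all genes. The higher one was Fabp7 (3.07), described above with the progenitors and counted in both lists. The lower one was Sox10, at 1.92 and 0.0734 FPKM (-1.44). Gfap, at 0.639 and 1.34 FPKM (0.51), and Mbp, at 3.28 and 6.25 FPKM (0.76), did not reach 2-fold.

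**Figure D5:**
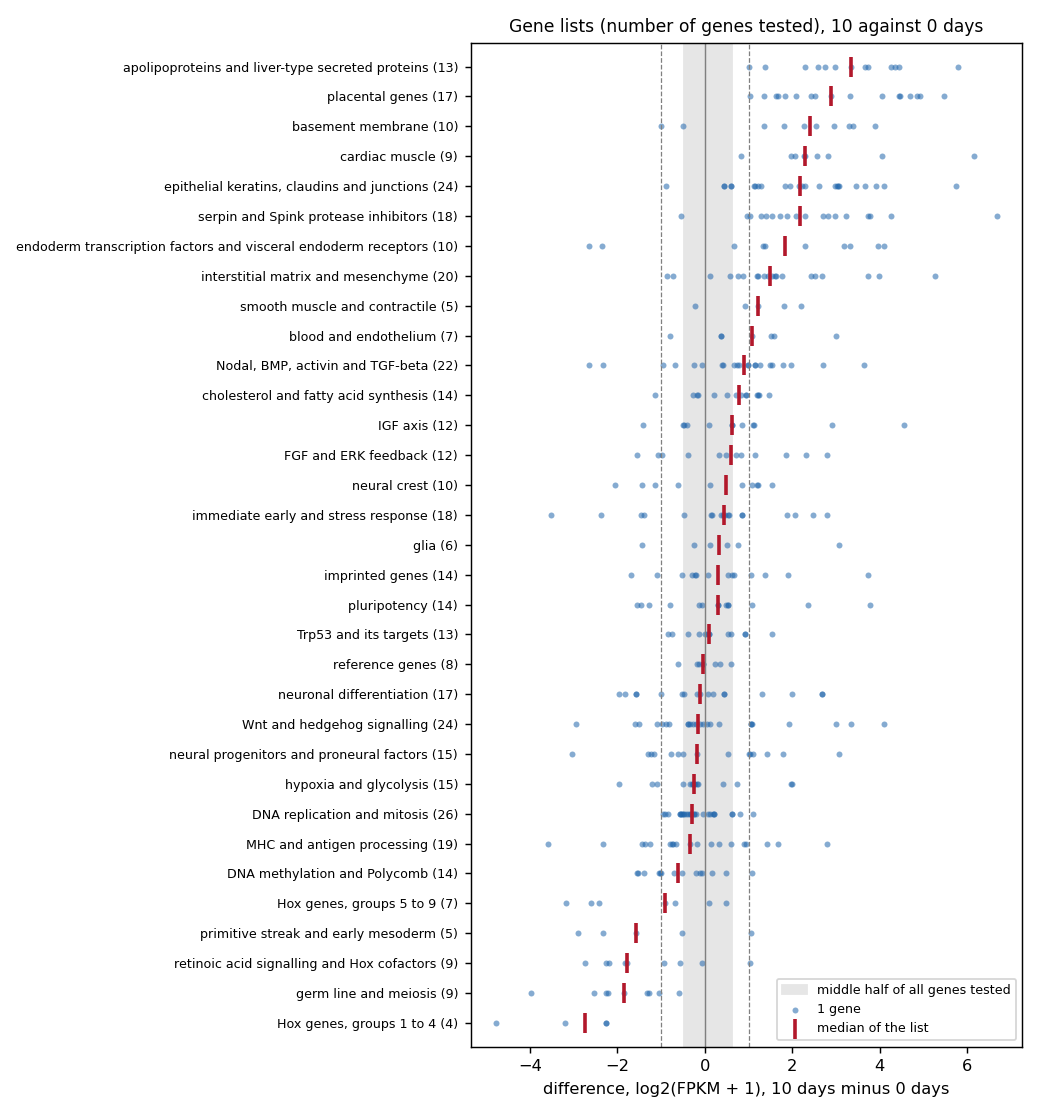
Difference in log2(FPKM + 1), 10 minus 0 days, for each tested gene (points) of the 33 lists with at least 3 tested genes, with the median of each list as a bar; list sizes stand in brackets. Dashed lines mark 2-fold and the grey band the quartiles of all tested genes, -0.48 to 0.63; medians run from -2.73 for Hox genes of groups 1 to 4 to 3.35 for liver-type secreted proteins.

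In the Nodal, BMP and TGF-beta list, 9 of 22 genes were higher and 2 lower, against 15.0% and 7.89% of all genes. Of the 22, 4 were under 1 FPKM at 0 days and entered through the 10-day level, and of the other 18, 5 were higher. Under the rescaled sum 8 were higher and 4 lower, and with length classes centred 11 and 3. Nodal stood at 33.7 FPKM in the control and, over the series, 24.7, 6.01 and 4.09 FPKM (-2.33), and its inhibitor Lefty1 is given above. Among the higher genes were secreted antagonists of BMP and activin, Nog at 0.829, 1.01, 11.3 and 24.2 FPKM (3.65) and Fst at 2.75, 5.73, 59.7 and 42.6 FPKM (2.70). Primitive streak and early mesoderm genes were lower in 3 of 5 cases, 3 of the 5 having entered through their 0-day level alone, among them the somite gene Meox1 at 7.85 FPKM at 0 days and 0.180 at 10 days (-2.91). The gene T, brachyury, was at 0.0176 FPKM at 0 days, 5.44 at 6 days and 0.776 at 10 days and so was not among the tested genes.

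In the Wnt and hedgehog list, 7 of 24 genes were higher and 4 lower, against 15.0% and 7.89% of all genes. Under the rescaled sum 4 were higher and 7 lower, and the median of -0.15 turned to 0.05 with length classes centred. The higher genes were ligands: Wnt7b was at 0.695 FPKM at 0 days and 16.2 at 10 days (3.35), Wnt6 at 0.312 and 9.44 FPKM (2.99), Wnt10b at 0.157 and 3.43 FPKM (1.94), and Ihh is given above. All 7 were under 1 FPKM at 0 days. The lower genes were on the receiving side of hedgehog and Wnt signals, with the hedgehog co-receptor Gas1 at 0.843 FPKM in the control and, over the series, 88.7, 12.1 and 10.7 FPKM (-2.94). The effectors Gli2 and Gli3 were at 4.04 and 3.94 FPKM at 0 days and 0.769 and 0.644 FPKM at 10 days (-1.51 and -1.59), and the Wnt receptor Fzd3 at 5.22 and 1.93 FPKM (-1.09, or -0.59 with length classes centred).

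For the IGF axis, 4 of 12 genes were higher and 1 lower, all of them binding proteins, against 15.0% and 7.89% of all genes. Under the rescaled sum 2 were higher. Igfbp1 stood at 0.0281 FPKM in the control and, over the series, 0.224, 20.99 and 27.7 FPKM (4.55), and Igfbp6 at 1.31, 1.70, 4.46 and 19.4 FPKM (2.91). Igfbp2 went the other way, at 121, 587, 131 and 218 FPKM (-1.43). Igfbp3 (1.10) and Igfbp4 (1.13) were higher but not under the rescaled sum, where they stood at 0.71 and 0.72, and Igfbp3 was at 0.97 with length classes centred. In the FGF and ERK feedback list, 4 of 12 were higher and 2 lower, against the same shares of all genes. Of the 10 at 1 FPKM or more at 0 days, 3 were higher, and of the 11 at that level at 10 days, 1 was lower. The receptor Fgfr4 was at 1.197 FPKM at 0 days and 9.92 at 10 days (2.31), and the feedback inhibitor Spred2 at 18.6 and 5.68 FPKM (-1.55).

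Immediate early genes, which respond within minutes to a stimulus or to handling, were led by Egr1 at 116 FPKM in the control and, over the series, 129, 6.84 and 10.4 FPKM (-3.51). Fos stood at 46.0, 72.2, 5.35 and 12.998 FPKM (-2.39). Both had their lowest level at 6 days. Other members of the same list were higher, among them the stress factor Ddit3 at 27.3 FPKM at 0 days and 117 at 10 days (2.06), Gadd45b at 10.3 and 61.9 FPKM (2.48), and Ier3 at 15.3 and 112 FPKM (2.79). On the whole list 4 of 18 were higher and 4 lower, against 15.0% and 7.89% of all genes. Of the 18, 2 were under 1 FPKM at 10 days and entered through their 0-day level alone, and of the other 16, 2 were lower. Trp53 itself was at 56.5 and 58.9 FPKM (0.06). Of 13 genes of its list 1 was higher and none lower (2 under the rescaled sum), against the same shares of all genes. The higher one was the cell death gene Pmaip1, at 10.6 and 32.6 FPKM (1.53).

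Genes of DNA replication and mitosis differed little, with a median of -0.28. None of 26 was lower (3 under the rescaled sum) and 1 was higher, against 7.89% and 15.0% of all genes. The 1 higher gene was Tk1, thymidine kinase, at 98.5 FPKM in the control and, over the series, 15.6, 43.9 and 34.9 FPKM (1.11), which was under 2-fold with length classes centred (0.98). Mcm6, a replication helicase subunit, was at 89.0 and 45.1 FPKM (-0.97) and passed 2-fold under upper-quartile scaling (-1.01). In the cholesterol and fatty acid list, 4 of 14 genes were higher and 1 lower, against 15.0% and 7.89% of all genes. That count followed the setting: 8 were higher and none lower with length classes centred, and 1 was higher under the rescaled sum. Sqle, squalene epoxidase, was at 52.9 FPKM in the control and, over the series, 17.8, 48.3 and 51.1 FPKM (1.47), and Hmgcs1, an early enzyme of the same route, at 78.7, 25.8, 77.0 and 61.9 FPKM (1.23). The lower gene, Acaca, makes fatty acids and was at 7.57 and 2.89 FPKM (-1.14), or -0.65 with length classes centred.

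Among 14 imprinted genes 4 were higher (2 under the rescaled sum) and 2 lower, against 15.0% and 7.89% of all genes. Of the 14, 2 were under 1 FPKM at 0 days and entered through the 10-day level, and of the other 12, 2 were higher. Airn, the noncoding RNA that lies antisense to Igf2r, stood at 0.0358 FPKM in the control and, over the series, 9.52, 13.9 and 26.3 FPKM (1.38), and Igf2r at 25.4 FPKM at 0 days and 39.7 at 10 days (0.63, or 1.12 with length classes centred). Because they overlap on opposite strands and the use of strand is not given, their reads cannot be told apart, and Airn was under 2-fold with length classes centred (0.86) and under the rescaled sum (0.99). The other higher genes included the thyroid hormone deiodinase Dio3 at 0.914 and 6.12 FPKM (1.90), and the lower ones were Zdbf2 at 8.79 and 2.05 FPKM (-1.68) and Impact at 55.5 and 25.5 FPKM (-1.09).

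Antigen presentation genes stood on both sides. Among 19 tested genes 3 were higher and 5 lower, against 15.0% and 7.89% of all genes, so the share of higher genes was near that of all genes. The 3 higher ones were classical or nonclassical class I genes: H2-K1 at 68.9 FPKM at 0 days and 187 at 10 days (1.42, or 0.99 with length classes centred), H2-D1 at 32.9 and 107 FPKM (1.68), and H2-T23 at 1.24 and 14.6 FPKM (2.80). The 5 lower genes included the class I gene H2-Q7, at 9.73 and 2.94 FPKM (-1.45), and were led by Raet1a, a ligand of the natural killer receptor NKG2D, at 4.42 FPKM in the control and, over the series, 71.3, 6.14 and 5.04 FPKM (-3.58), and H60b, another such ligand, at 2.30, 5.58, 0.276 and 0.318 FPKM (-2.32). The immunoproteasome subunit Psmb8 was at 10.6 FPKM at 0 days, 1.87 at 6 days and 3.87 at 10 days (-1.25). H2 and Raet1 genes have near-identical copies, so single values are uncertain. Housekeeping genes served as reference: none of 8 reached 2-fold (1 was lower under the rescaled sum), with Ppia at 2183 and 2778 FPKM (0.35, or -0.07 under the rescaled sum) and Polr2a at 40.2 and 35.4 FPKM (-0.18).

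Several of the largest upward differences belonged to none of the lists. Ccl20 and Ccl2, chemokines that draw lymphoid and myeloid cells, stood at 0.243 and 0.767 FPKM at 0 days, 4.56 and 14.8 at 6 days, and 62.1 and 39.0 at 10 days (5.67 and 4.50). Msln, a surface protein of mesothelium, was at 8.04 FPKM in the control and, over the series, 0.264, 8.97 and 40.9 FPKM (5.05). Car4, a membrane-bound carbonic anhydrase, was at 3.32, 5.60, 141 and 216 FPKM (5.04), and Psca, a surface antigen of epithelia, at 1.43, 5.57, 12.7 and 151 FPKM (4.53). Ccl20 and Psca stood out among these in having most of their difference after 6 days. Among the largest downward differences outside the lists were Gbx2, a homeobox gene of the anterior hindbrain, at 26.5, 10.1, 1.00 and 0.799 FPKM (-2.62), and Fsd1, which binds microtubules, at 9.90, 29.1, 5.64 and 3.96 FPKM (-2.60).

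Small RNAs aside, the largest downward difference was in Ispd (chr12:36381450-36689503, plus strand), an enzyme gene for the sugar chains of dystroglycan, at 5462 FPKM in the control and, over the series, 10749, 11919 and 1.01 FPKM (-12.38). Filip1l, which encodes a filamin-binding protein, behaved alike in part, at 3396, 3750, 12131 and 1379 FPKM (-1.44). The ribosomal RNA precursor Rn45s stood at 543 FPKM in the control and, over the series, 1191, 2629 and 402 FPKM, and its part in the 2 genes was not tested. Filip1l overlaps Cmss1 on the opposite strand, and Cmss1 was at 907 and 510 FPKM (-0.83, or -1.34 with length classes centred). Measured in FPKM gained, 9 of the 10 largest gains were ribosomal protein genes, led by Rpl41 at 4898 FPKM at 0 days and 8612 at 10 days (0.81), and the tenth was Sparc. Of these 9 only Rpl38 reached 2-fold, at 2776 and 6153 FPKM (1.15), and it did not with length classes centred (0.41), where the signs of Rps26, Rps28 and Rps29 flipped.

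The 6-day library placed the differences in time. The ends of each path were fixed by how the genes were called, so only the 6-day place is informative. Of the 848 higher genes, 739 had a 6-day level between the 2 ends, 87 above both and 22 below both, and the median gene had covered 64.0% of its log2 difference by 6 days (quartiles 43.0% and 81.1%). Of the 447 lower genes, 373 lay between, 68 below both and 6 above both, with a median of 75.2% (57.1% and 93.5%). Among all tested genes 13 stood 2-fold or more above both ends at 6 days. Apart from 2 small or ribosomal RNAs these were Filip1l, Hoxc6, and 9 others: Fabp7, Map2, Tagln3, Nsg2, Nell2, Pantr1, Wnt1, Gli1 and Cxcr4. Wnt1, a signal of the dorsal neural tube, was listed at 0 in the control and stood at 0.636 FPKM at 0 days, 6.72 at 6 days and 2.40 at 10 days (1.06, or 0.92 with length classes centred), and Nsg2, a protein of neuronal endosomes, at 0.310, 3.13, 18.0 and 7.19 FPKM (0.99). Another 13 stood 2-fold or more below both ends, among them Fos, Prph, Tap2, which carries peptides to class I molecules, and the gut hormone gene Pyy at 14.3 FPKM at 0 days, 3.91 at 6 days and 18.5 at 10 days (0.35).

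Set against the control, 428 of the 848 genes higher at 10 days had a control level below both the 0-day and the 10-day level, 337 a level between them and 83 a level above both. Of the 447 lower genes, 98 had a control level below both, 213 between and 136 above both. These counts do not measure how close a 10-day level came to the control, and the lower Hox genes differed in this. Hoxb5 was at 0.0294 FPKM in the control and 8.44 at 10 days. By contrast, Hoxb1 was at 0.0189 and 0.181 FPKM, and Hoxb13 at 0.200 and 0.497 FPKM.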

How the data were processed

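RNA of 4 mouse embryoid body libraries was sequenced, and the 10-day and 0-day ATRA libraries were compared. The values in the deposited table are FPKM per the file headers, without counts. Trimmomatic, TopHat, Cufflinks and mm10 are named per the submitters' processing notes, without versions; annotation, strand use and filters are not stated in the labels. Since FPKM is relative to the total, very abundant RNAs depress the other values, and reads shared by similar genes are divided by a model. Total RNA was reverse transcribed with oligo(dT) primers, per the labels' protocols.

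The table's 10201 rows were summed to 9997 symbols (177 had more than 1 row). Positions, longest transcripts and overlaps came from GENCODE M21 on mm10, for 9843 symbols. Differences were taken on log2(FPKM + 1) among genes at 1 FPKM or more in either library. Depth came from the lowest values of genes with 1 transcript of 800 nt or more. The 527 small or ribosomal RNAs were counted in totals but not named, apart from Rn45s. No test was possible with 1 library a side.

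The members and the 34 lists (511 of 978 genes in the table, 419 tested) were chosen with earlier results of these data known. Genes were named by rule: the 15 largest differences each way where one of the libraries reached 5 FPKM, and the 10 largest gains and losses in FPKM, passing over predicted genes, pseudogenes, antisense genes and small RNAs; up to 6 members of each list with the largest differences and all tested Hox genes; 9 landmarks; and the 5 called genes with the highest and the 5 with the lowest 6-day place. Other genes were named after their values were seen. Some genes of the lists are counted but not reported here by name. Centring by length class, and leaving out small RNAs without rescaling, were added after seeing the data. On simulated libraries of 5564 genes with counting error only, 100 of 100 genes changed 3-fold and 100 of 100 changed 6-fold were called. Of the unchanged ones, 0 of 5364 were called. The changes were planted only in genes with a mean of 5 FPKM or more. Changes at lower levels, where the scale shrinks differences, were not simulated. Python 3.11.15, numpy 2.4.6, pandas 2.3.3 and matplotlib 3.10.9 were used.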

Additional observations from a re-analysis of the deposited data

How the results depend on the processing

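No paired analysis was possible because each group had 1 library, and no replicate could be left out. Of the 169 named genes 2-fold or more apart, none changed direction under any setting run, which the settings could not have shown otherwise. A pseudocount cannot change a sign, and the other settings moved named genes by no more than -0.74 to 0.49. Among all 219 named genes the sign changed for 5 under the rescaled sum. With length classes centred it changed for 7 of 218. The count of higher genes, 848, ranged from 518 under the rescaled sum to 1030 with a pseudocount of 0.1, and was 248 at 4-fold. The count of lower genes, 447, was 702 with a pseudocount of 0.1, 984 under the rescaled sum and 62 at 4-fold. Leaving the same RNAs out without rescaling gave 830 higher and 433 lower of 5601 genes. The rescaling itself moved the 10-day library by -0.41 in log2 relative to the 0-day library. Why the remaining sums of the libraries differ was not tested. The 4-fold counts are smaller by construction. Under the rescaled sum 19 of the 169 named genes were no longer 2-fold apart, and with length classes centred 19 of 168. The depth cannot resolve levels under about 0.11 FPKM on 1 kb, and no setting stands in for replicates.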

Other observations

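Gene families picked by symbol after their values were seen are described here by counts only. Of 121 tested Zfp zinc finger genes, most of them DNA-binding repressors, 14 were lower at 10 days (10 with length classes centred), against 7.89% of all genes, and none was higher, with a median of -0.57, or -0.47 with length classes centred. Of 13 CC chemokine genes in the table, 3 reached 1 FPKM, all through the 10-day library, so that their being higher follows from how they entered: Ccl20 and Ccl2, and Ccl7 at 0.124 FPKM at 0 days, 2.70 at 6 days and 17.2 at 10 days (4.02). Among 6 genes with a galectin (Lgals) symbol, 5 were higher (4 with length classes centred), against 15.0% of all genes. Galectins bind sugars on cell surfaces. The symbol also took in Lgals3bp, at 4.15 and 28.2 FPKM (2.50), which encodes a galectin-binding protein and not a galectin. Lgals3 stood at 49.8 FPKM in the control and, over the series, 2.89, 27.8 and 53.2 FPKM (3.80), and Lgals2 at 2.48, 9.56, 96.5 and 130 FPKM (3.63). Lgals8 was the exception at 12.7 and 10.6 FPKM (-0.24).

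The short, abundant transcripts of translation and respiration had positive medians that length centring removed or shrank. The median of 36 cytosolic ribosomal protein genes was 0.54, or -0.12 with length classes centred, that of 48 respiratory chain genes 0.64, or 0.09, and that of 35 mitochondrial ribosomal protein genes 0.69, or 0.37. The summed level of the cytosolic ribosomal protein genes was 81324 FPKM at 0 days and 124935 at 10 days.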
